A study of Mus musculus with 6 samples.

Results

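The 9 genes followed here make or export glucose in hepatocytes, or set how glucose enters glycolysis there: Pck1, G6pc, Fbp1, Pcx, Slc37a4, Slc2a2, Gckr, Pklr and Pfkfb1. They were taken by symbol from a table of 28450 genes. Each symbol had 1 row, and all 9 averaged at least 1 FPKM over the livers, the minimum for testing, which 10996 genes met. The samples were 3 livers of Acsm3 knockout mice and 3 livers of control mice labelled WT. All mice were male, 12 weeks old and on a normal diet, and each liver gave 1 library of RNA enriched for mRNA on capture beads. The Acsm3 protein is an acyl-CoA synthetase of mitochondria that activates medium-chain fatty acids. The sources used here do not give the design of the knockout, the strain, or the hour and feeding state at collection; the mice were housed with free access to food.

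Hepatocytes release glucose between meals by gluconeogenesis, which runs glycolysis backwards and bypasses its irreversible steps with enzymes of its own. Pyruvate carboxylase and phosphoenolpyruvate carboxykinase carry pyruvate to phosphoenolpyruvate, fructose bisphosphatase acts in the middle of the pathway, and glucose-6-phosphatase frees glucose at the end. After a meal opposite steps are taken by glycolytic enzymes, among them phosphofructokinase and liver pyruvate kinase. Glucagon and glucocorticoids are known to raise Pck1 and G6pc transcripts, and insulin is known to lower them, within hours.

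Values are FPKM, fragments scaled to the length of the gene and the depth of the library, so levels of different genes can be set side by side. Steps between low values implied library totals of 15300000 to 16200000 fragments in knockouts and 15700000 to 16300000 in controls. Acsm3 was at 0.668, 2.92 and 1.08 FPKM in knockout livers 1, 2 and 3, against 33.2, 34.4 and 32.2 FPKM in control livers 1, 2 and 3. Changes below are log2 fold changes of FPKM + 1, knockout minus control, ± SE from limma, with p adjusted over all 10996 tested genes (Benjamini-Hochberg, threshold 0.05). The median over all tested genes was 0.13, so a gene near that value lay with the bulk of the transcriptome. P-values measure the spread between 3 mice per group. Knockout 3 lay nearest to the controls on the first principal component, which held 56.1% of the variance.

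Among the 9 genes, Pck1 and G6pc fell in knockout livers, 0 were called higher, and 7 did not pass the test. The share called lower over all tested genes was 2.61%, and the share called higher was 13.9%. The median change of the 9 genes was -0.03, against 0.13 over all tested genes. Knockout and control values did not overlap for Pck1, G6pc and Fbp1 (lower in knockouts) and for Pklr (higher in knockouts). That is 4 of 9 genes, where 41.8% of all tested genes had groups that did not overlap (33.9% higher and 7.91% lower). Among the 437 tested genes whose level averaged 100 FPKM or more, as it did for Pck1, G6pc, Fbp1 and Pcx, 14.9% were called lower and 11% higher. After median-ratio rescaling, which removes the shift shared by most genes, 3 of the 9 genes were called lower (Pck1, G6pc and Fbp1) and 0 higher, where 6.7% of tested genes were called lower and 7.57% higher. In fits without 1 liver, the number of the 9 genes called lower was 0 without control 2 or without control 3, and 1 without any other single liver.

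**Figure D1:**
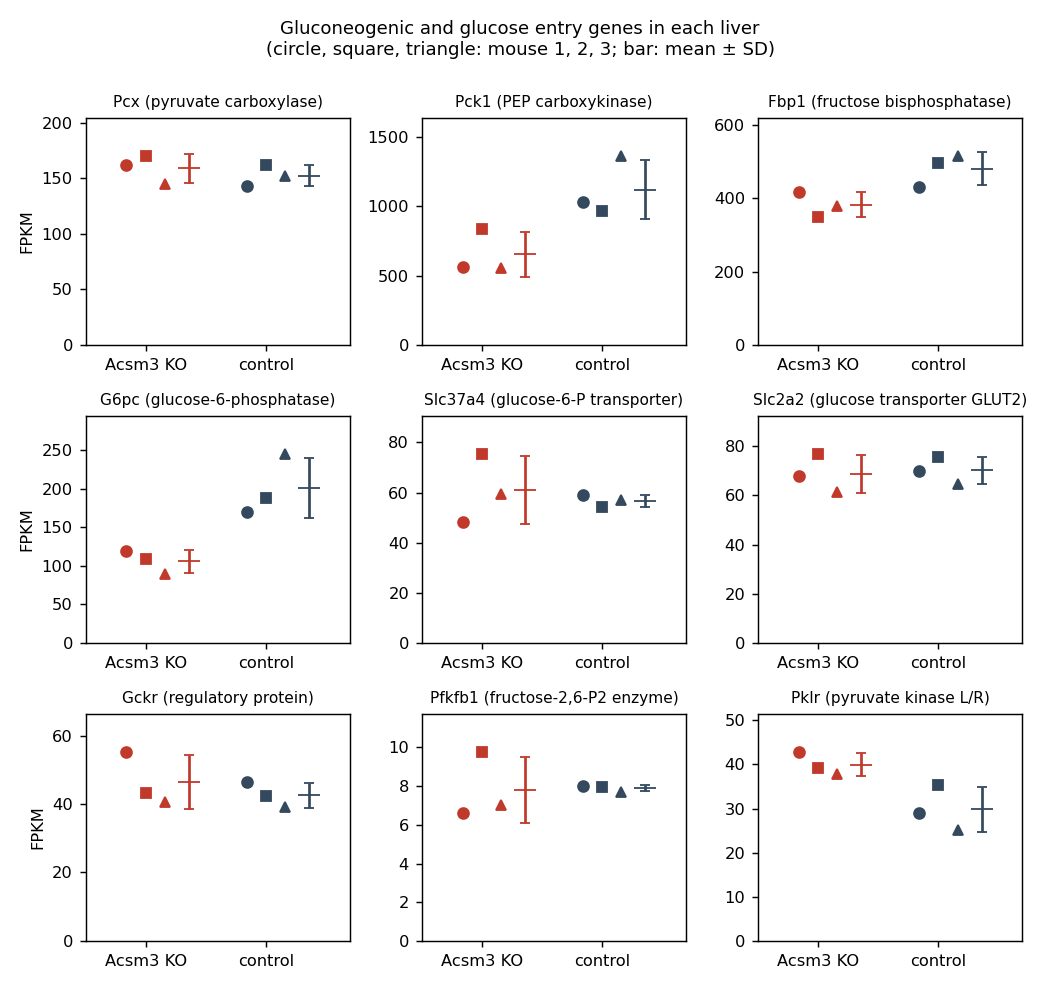
FPKM of each gene in each liver (y axis from 0), Acsm3 knockout left and control right, 3 livers per group, with the mean ± SD beside the points. All knockout points lie below all control points for Pck1, Fbp1 and G6pc, and above them for Pklr; the groups overlap in the other 5 panels.

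Pck1, the cytosolic phosphoenolpyruvate carboxykinase, had the highest level of the 9 genes. It was at 565, 837 and 555 FPKM in knockout livers 1, 2 and 3, against 1030.0, 962 and 1362 FPKM in control livers 1, 2 and 3. Every knockout liver lay below every control liver, and knockout 2 came closest to the controls. The means were 652 ± 160.1 FPKM in knockout and 1118 ± 214 FPKM in control livers (SD, n = 3 each), a ratio of 0.583. On the log2 scale this was -0.79 ± 0.20 (limma, adjusted p = 0.0435, 95% interval -1.27 to -0.31). The call was lost without knockout 1 (adjusted p = 0.122, limma), knockout 3 (0.0821), control 1 (0.0833), control 2 (0.0859) or control 3 (0.119), while the change stayed between -0.98 and -0.64. It was also lost with quantile normalization (limma adjusted p = 0.087) and with no filter on low genes (0.11).

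G6pc, the catalytic subunit of glucose-6-phosphatase, had the largest change of the 9 genes. It was at 119.7, 108.5 and 89.8 FPKM in knockout livers 1, 2 and 3, against 170.1, 188 and 245 FPKM in control livers 1, 2 and 3. The highest knockout liver stayed well under the lowest control liver. The means were 106 ± 15.1 FPKM in knockout and 201.1 ± 39.2 FPKM in control livers (SD, n = 3 each), a ratio of 0.527. On the log2 scale this was -0.91 ± 0.16 (limma, adjusted p = 0.02, 95% interval -1.30 to -0.52), and 0.518% of tested genes had a lower one. The call was lost without knockout 2 (adjusted p = 0.0665, limma), control 2 (0.0616) or control 3 (0.0551) and with no filter (0.0542), with a change of -1.02 to -0.76 when 1 liver was left out.

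The promoters of the genes that fell are shown because their hormone response elements are textbook cases, and that of Pklr because it holds the classic carbohydrate response element. Each run is the 250 bases before the RefSeq start (GRCm38.p6, plus strand), 5′ to 3′. The Pck1 window is chr2:173152823-173153072, the G6pc window is chr11:101367466-101367715, and the Pklr window, before the downstream start that liver is known to use, is chr3:89136373-89136622. Capitals mark TTACGTCA, a cAMP response element, in Pck1. In G6pc they mark TGTTTTG, an insulin response core, then TTACGTAA, a cAMP response element, then the TATA box TATAAA. In Pklr they mark the carbohydrate response element bound by ChREBP, searched as CACGNG and CNCGTG with any 5 bases between them.
Pck1: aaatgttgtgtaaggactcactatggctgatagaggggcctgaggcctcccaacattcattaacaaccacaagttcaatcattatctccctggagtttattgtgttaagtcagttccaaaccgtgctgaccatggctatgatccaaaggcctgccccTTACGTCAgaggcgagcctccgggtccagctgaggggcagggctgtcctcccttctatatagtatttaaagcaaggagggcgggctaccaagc
G6pc: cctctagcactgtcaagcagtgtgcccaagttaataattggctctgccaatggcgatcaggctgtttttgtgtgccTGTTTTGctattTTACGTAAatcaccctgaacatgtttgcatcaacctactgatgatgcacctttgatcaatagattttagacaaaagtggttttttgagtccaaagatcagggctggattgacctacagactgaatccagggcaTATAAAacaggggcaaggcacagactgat
Pklr: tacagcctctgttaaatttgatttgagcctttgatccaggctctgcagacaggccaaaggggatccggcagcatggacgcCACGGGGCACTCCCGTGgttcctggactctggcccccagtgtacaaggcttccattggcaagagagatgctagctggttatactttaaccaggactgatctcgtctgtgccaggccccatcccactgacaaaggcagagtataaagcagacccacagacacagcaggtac
Both strands of 16 windows of the 9 genes and of all 32851 windows in the RefSeq table were searched. TTACGTCA stood at -93 to -86 from the start in Pck1 and in 0.448% of all windows. TTACGTAA stood at -162 to -155 in G6pc and in 0.113% of all windows, and TGTTTTG at -174 to -168 in G6pc, also in Gckr, and in 5.56% of all windows. The carbohydrate element stood at -170 to -154 in Pklr and in 13 windows in all (0.0396%). The half-site ACGTCA, which lies inside TTACGTCA, was found in Pck1 and Slc37a4 and in 6.47% of windows. The letters TATAAA stood at -29 to -24 in G6pc, -31 to -26 in Pklr and -32 to -27 in Slc37a4. In Pfkfb1 they stood farther off, at -193 to -188 (12.4% of all windows held them). The HNF1 half-site GTTAAT was found in Pck1, G6pc, Gckr and Pfkfb1 (6.43%). The E-box CACGTG was found in Pcx (6.02%) and the FOXO motif TGTTTAC in 0 of the 9 genes (3.17%). Percentages are per window, while a gene was named if any of its windows matched, so numbers of genes and these shares are unlike measures. None of the searched letters stood in the windows of Fbp1 and Slc2a2. A match is a description of letters, and binding was not measured.

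Fbp1, the liver fructose bisphosphatase, was at 417, 349 and 379 FPKM in knockout livers 1, 2 and 3, against 430.2, 496 and 516 FPKM in control livers 1, 2 and 3. The groups did not overlap, but knockout 1 and control 1 were close. The change was -0.33 ± 0.11 and did not pass (limma, adjusted p = 0.0751, 95% interval -0.58 to -0.08). After median-ratio rescaling it passed at -0.50 (limma adjusted p = 0.0459).

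Pcx, the mitochondrial pyruvate carboxylase that supplies oxaloacetate, was at 162, 170.4 and 144.6 FPKM in knockout livers 1, 2 and 3, against 143, 162 and 152 FPKM in control livers 1, 2 and 3. The groups overlapped, and the change was 0.06 ± 0.09 (limma, adjusted p = 0.678, 95% interval -0.16 to 0.28; -0.10 after median-ratio rescaling). The order of Pcx and G6pc differed between the genotypes. In each knockout liver G6pc lay below Pcx, and in each control liver it lay above Pcx.

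The carriers that serve glucose-6-phosphatase and glucose export gave no call. Slc37a4, which brings glucose-6-phosphate to the enzyme in the endoplasmic reticulum, was at 48.2, 75.5 and 59.5 FPKM in knockout livers 1, 2 and 3, against 59, 54 and 57 FPKM in control livers 1, 2 and 3. The knockout livers spread on both sides of the controls, and the change was 0.08 ± 0.16 (limma, adjusted p = 0.738, 95% interval -0.29 to 0.45; -0.08 after median-ratio rescaling). Slc2a2, the glucose transporter GLUT2 of the hepatocyte surface, was at 67.7, 76.9 and 61.5 FPKM in knockout livers 1, 2 and 3, against 70.0, 75.8 and 64.7 FPKM in control livers 1, 2 and 3. These values overlapped closely, with a change of -0.03 ± 0.11 (limma, adjusted p = 0.852, 95% interval -0.28 to 0.22).

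Of the genes on the side of glucose use, Pklr had groups that did not overlap. Pklr encodes the pyruvate kinase of liver and red cells. It was at 42.9, 39.2 and 37.7 FPKM in knockout livers 1, 2 and 3, against 29.1, 35.3 and 25.2 FPKM in control livers 1, 2 and 3. The lowest knockout lay a little above control 2, the highest control. The means were 39.9 ± 2.66 FPKM in knockout and 29.8 ± 5.08 FPKM in control livers (SD, n = 3 each). The change of 0.42 ± 0.13 did not pass (limma, adjusted p = 0.0651, 95% interval 0.12 to 0.72), was 0.26 after median-ratio rescaling, and passed with voom on estimated fragments (limma adjusted p = 0.048). Pklr shares 711 bp of exon with Hcn3 on the opposite strand, and the sources used here do not say if strand was kept. Hcn3 was at 2.49, 2.03 and 1.82 FPKM in knockout livers 1, 2 and 3, against 1.16, 1.58 and 0.919 FPKM in control livers 1, 2 and 3.

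Gckr, which encodes a nuclear regulatory protein of hepatic glucose use, was at 55.3, 43.2 and 40.7 FPKM in knockout livers 1, 2 and 3, against 46.4, 42.3 and 39 FPKM in control livers 1, 2 and 3. The groups overlapped, and the change was 0.11 ± 0.13 (limma, adjusted p = 0.573, 95% interval -0.20 to 0.42; -0.05 after median-ratio rescaling). Pfkfb1, the bifunctional enzyme that makes and breaks fructose-2,6-bisphosphate, had the lowest level of the 9 genes. It was at 6.62, 9.78 and 7.03 FPKM in knockout livers 1, 2 and 3, against 8.03, 7.96 and 7.70 FPKM in control livers 1, 2 and 3, with a change of -0.03 ± 0.14 (limma, adjusted p = 0.892, 95% interval -0.35 to 0.29). Knockout 2 was the highest and knockout 1 the lowest of all 6 livers. Pfkfb1 shares 123 bp of exon with Apex2 on the opposite strand. The spread within the group was larger among knockouts than among controls for 6 of the 9 genes. The share over all tested genes is not given, so this count is not read as a trait of these genes. The widest contrasts in the coefficient of variation were 22% against 2.17% for Pfkfb1 and 22.4% against 4.42% for Slc37a4. The spread was smaller among knockouts for G6pc, Fbp1 and Pklr (6.66% against 17% for Pklr). Pfkfb1 rested on at least 414 estimated fragments in a liver, which gives a counting error of about 4.91%, and Pck1 on at least 30161.

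Ordered by mean control level, the genes ran Pck1, Fbp1, G6pc, Pcx, Slc2a2, Slc37a4, Gckr, Pklr and Pfkfb1. In control livers the ranges of neighbours in this order did not overlap. In knockout livers Pcx stood above G6pc, and the ranges of Slc2a2 and Slc37a4, of Slc37a4 and Gckr, and of Gckr and Pklr overlapped. Positions are given in GRCm38. Pck1 lies at 173153048 to 173159273 on the plus strand of chromosome 2, and G6pc at 101367561 to 101377903 on the plus strand of chromosome 11. Fbp1 lies at 62864753 to 62888282 on the minus strand of chromosome 13, and Pklr at 89136142 to 89146784 on the plus strand of chromosome 3.

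Ratios of opposing enzymes within a liver do not depend on the scaling between libraries. Pck1 over Pklr was 13.2, 21.4 and 14.7 in knockout livers 1, 2 and 3, against 35.4, 27.3 and 54.1 in control livers 1, 2 and 3, a mean log2 difference of -1.22. This ratio did not overlap between the groups, which follows from Pck1 lying lower and Pklr higher in every knockout liver. Fbp1 over the liver phosphofructokinase Pfkl was 59.1, 48.1 and 61.8 in knockout livers, against 60.3, 72.3 and 84.5 in control livers, and these overlapped. Among ratios added after the data were seen, G6pc over its carrier Slc37a4 was 2.48, 1.44 and 1.51 in knockout livers, against 2.88, 3.48 and 4.30 in control livers. Pck1 over Pcx was 3.48, 4.91 and 3.83 in knockout livers, against 7.18, 5.92 and 8.96 in control livers. Knockout livers lay below all control livers in both of these ratios. Slc37a4 and Pcx had small changes, so these ratios restate the falls of G6pc and Pck1 and are no separate evidence. The ratios were described and not tested.

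**Figure D2:**
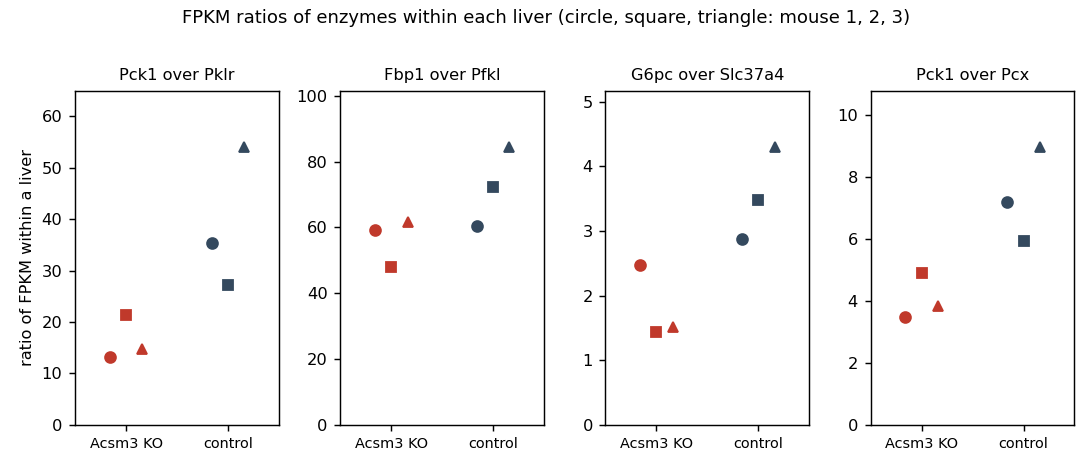
Ratio of FPKM of 2 genes within each liver (y axis from 0), Acsm3 knockout left and control right, 3 livers per group. Knockout ratios lie below all control ratios for Pck1 over Pklr, G6pc over Slc37a4 and Pck1 over Pcx, and overlap them for Fbp1 over Pfkl.

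Along the rest of the pathway, 2 of 21 tested enzymes rose and 1 fell, with a median of 0.04; after median-ratio rescaling 2 rose and 3 fell, Tpi1 (-0.40) and Pfkm (-0.36) beside Got1. The cytosolic aspartate aminotransferase Got1, which moves oxaloacetate carbon for Pck1, was at 70.2, 53.3 and 90.1 FPKM in knockout livers, against 129, 143 and 189 FPKM in control livers (-1.11 ± 0.22, limma adjusted p = 0.0235). The pyruvate kinase Pkm (1.16 ± 0.21, limma adjusted p = 0.021) and the hexokinase Hk3 (0.90 ± 0.21, limma adjusted p = 0.0337), forms of cells other than hepatocytes, rose. Macrophage markers rose beside them in 4 of 7 tested genes (3 rose and 1 fell after median-ratio rescaling). Their summed levels were 284 to 535 FPKM in knockouts and 164 to 259.8 FPKM in controls. Marco went the other way, at 0.767, 2.04 and 0.963 FPKM in knockout livers, against 5.59, 10.3 and 2.31 FPKM in control livers. Its change was -1.52 ± 0.44 (limma adjusted p = 0.0586), and it is the marker that fell after rescaling (-1.62, limma adjusted p = 0.0487). The part of macrophages in the rises of Pkm and Hk3 was not tested. Got1, Pkm and Hk3 lost their calls without control 2, control 3, knockout 1 or knockout 2, and Pkm and Hk3 without control 1 (limma adjusted p up to 0.0986).

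**Figure D3:**
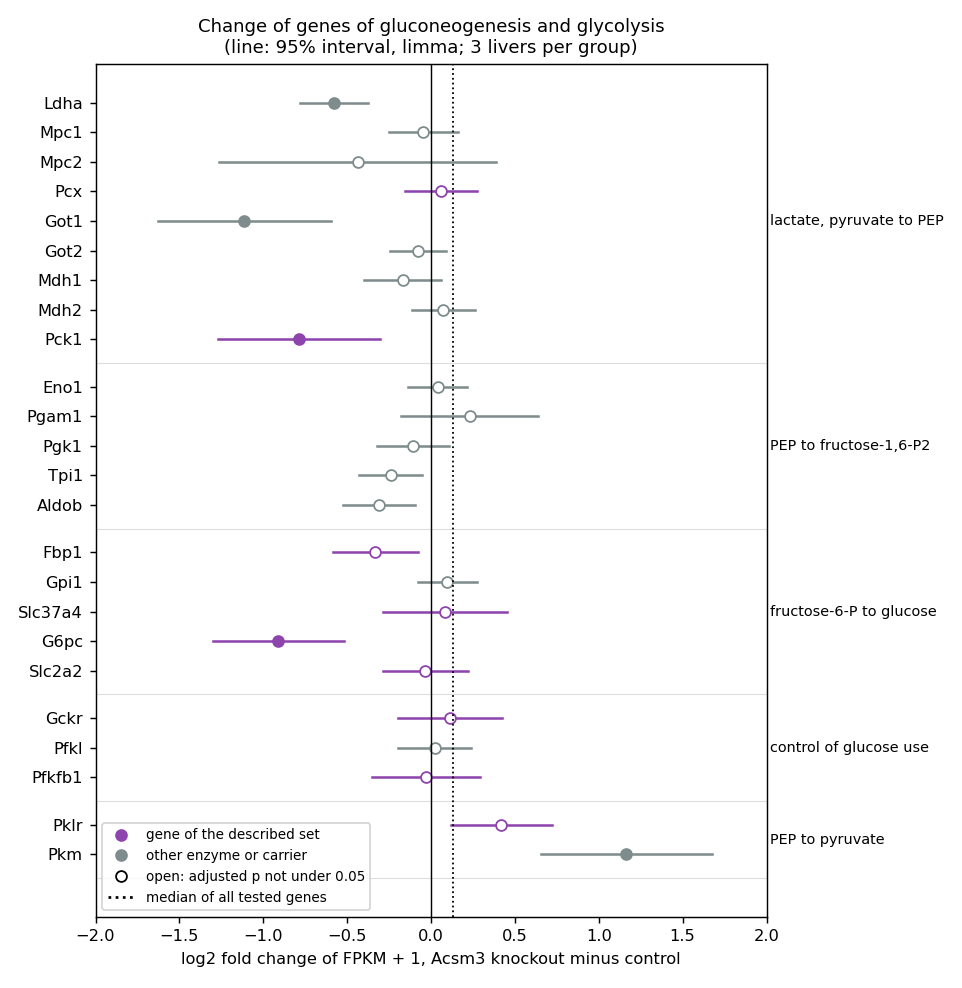
Log2 fold change of FPKM + 1, Acsm3 knockout minus control (x axis), for genes in pathway order (y axis), with 95% intervals from limma and filled points for an adjusted p under 0.05. Ldha, Got1, Pck1 and G6pc are filled on the lower side and Pkm on the higher side.

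Of 19 tested genes that bring lactate, pyruvate, alanine, serine and glycerol into gluconeogenesis, 2 rose and 4 fell, with a median of 0.09. Lactate dehydrogenase Ldha (-0.58 ± 0.08), serine dehydratase Sds (-0.66 ± 0.14), alanine aminotransferase Gpt (-0.41 ± 0.10) and glycerol kinase Gk (-0.34 ± 0.08) fell (limma adjusted p from 0.0129 to 0.0381). The lactate and pyruvate transporter Slc16a1 (0.68 ± 0.11) and the mitochondrial glycerol-3-phosphate dehydrogenase Gpd2 (0.68 ± 0.10) rose. Ldha was at 249.6, 239.7 and 234 FPKM in knockout livers 1, 2 and 3, against 334, 391 and 358 FPKM in control livers 1, 2 and 3. Among these 6 genes, calls were lost without control 1 or knockout 1 (Sds, Gpt and Gk), control 2 (all but Ldha), control 3 (all), knockout 2 (Ldha, Slc16a1, Gpt and Gk) or knockout 3 (Sds and Gk), with limma adjusted p up to 0.126.

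Other routes of hexose entry gave 1 call among 10 tested genes, a fall of the fructose transporter Slc2a5 (-0.55 ± 0.12, limma adjusted p = 0.0291), and 2 after median-ratio rescaling, with Slc2a9 (-0.38). In the pentose phosphate pathway, which draws on glucose-6-phosphate to make NADPH, 4 of 7 tested genes rose and 0 fell, with a median of 0.52. They were Pgd (0.86 ± 0.15), Taldo1 (0.54 ± 0.08), Tkt (0.52 ± 0.08) and H6pd (0.31 ± 0.07), with limma adjusted p from 0.0129 to 0.0362. The glucose-6-phosphate dehydrogenase gene G6pdx was not called (0.54 ± 0.19, limma adjusted p = 0.091), and its groups overlapped. Taldo1 was at 43.9, 44.8 and 42.5 FPKM in knockout livers 1, 2 and 3, against 30.9, 31.3 and 27 FPKM in control livers 1, 2 and 3. H6pd lost its call after median-ratio rescaling (limma adjusted p = 0.188). Macrophage, stellate and endothelial markers had medians of 0.93, 0.70 and 0.51 in the same livers, and their part in these rises was not tested. All 5 called genes of this paragraph lost their calls without knockout 2, Slc2a5 and H6pd also without any other liver but knockout 3, Pgd without control 1, control 3 or knockout 1, and Tkt without control 2 or control 3 (limma adjusted p up to 0.123).

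Of 22 regulators of gluconeogenic transcription, 1 rose and 1 fell, with a median of -0.08. The nuclear receptor gene Hnf4a rose (0.70 ± 0.12, limma adjusted p = 0.0194; 0.54 with adjusted p = 0.0524 after median-ratio rescaling). It was at 229, 199.6 and 254 FPKM in knockout livers, against 146.7, 121.1 and 150.7 FPKM in control livers. The orphan receptor gene Esrra fell (-0.54 ± 0.09, limma adjusted p = 0.0194). Not called, and named after their values were seen, were the coactivator Ppargc1a (-0.47 ± 0.18, limma adjusted p = 0.115), the forkhead factor Foxo1 (-0.07 ± 0.27, adjusted p = 0.884) and the glucagon receptor Gcgr (-0.19 ± 0.11, adjusted p = 0.276). After median-ratio rescaling 0 regulators rose and 2 fell, Esrra and Gcgr (-0.35, limma adjusted p = 0.0427). Of 13 genes of the carbohydrate-response factor ChREBP, its partners and targets, 1 rose, the elongase Elovl6 (0.70 ± 0.14, limma adjusted p = 0.0244), and 0 passed after median-ratio rescaling. Mlxipl, which encodes ChREBP, was at 0.20 ± 0.22 (limma adjusted p = 0.554). Hnf4a, Esrra and Elovl6 lost their calls without control 2 (all), control 1 (Esrra), control 3 (Hnf4a and Esrra), knockout 1 (Hnf4a and Elovl6) or knockout 2 (Esrra and Elovl6), with limma adjusted p up to 0.0791.

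Some markers shared by all hepatocytes fell beside Pck1 and G6pc. In these bulk livers, fewer hepatocytes and less RNA per hepatocyte cannot be told apart. Of 7 tested hepatocyte markers 2 fell, Alb (-0.61 ± 0.13) and Ttr (-0.43 ± 0.09), with limma adjusted p of 0.0314 and 0.0293, a median of -0.25 and summed levels of 33240 to 36351 FPKM in knockouts and 43773 to 51802 FPKM in controls. Ttr lost its call with quantile normalization (-0.33, limma adjusted p = 0.0662). That scaling gives a gene of the same rank in every liver the same value in each. The change of Alb was 0 there for this reason, which is no test of its fall. Neither call held with no filter (limma adjusted p = 0.616 for Alb and 0.23 for Ttr). After median-ratio rescaling Serpinc1 fell as well. The other 5 markers ran from -0.31 (Fgb) to 0.14 (Apob). Pck1, G6pc and Fbp1 were set against each of the 7 markers within a liver, in ratios added after the data were seen. G6pc ratios were lower on average in knockout livers over all 7 markers, by a mean log2 difference from -1.05 (over Apob) to -0.31 (over Alb), and the groups did not overlap for 6 of 7. Pck1 ratios were lower on average over all 7 markers, from -0.93 (over Apob) to -0.18 (over Alb), and the groups did not overlap for 1 of 7. Fbp1 ratios ran from -0.47 (over Apob) to 0.27 (over Alb) and were lower on average over 5 of 7 markers. The groups did not overlap for 2 of 7, with knockouts below controls over Apob and above them over Alb. Albumin, the marker with the lowest change, gave the smallest differences for Pck1 and G6pc. G6pc over Alb was 0.00567, 0.00480 and 0.00374 in knockout livers, against 0.00564, 0.00523 and 0.00656 in control livers, and this is the marker over which its groups overlapped.

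Gluconeogenesis is strongest in periportal hepatocytes, so markers of both zones were read beside it. Of 10 tested periportal markers 3 fell, namely Sds, Gls2 (-0.55 ± 0.14) and Pigr (-0.34 ± 0.08), 0 rose, and the median was -0.33. Aldh1b1 (0.41 ± 0.17), Hsd17b13 (0.31 ± 0.09) and Cyp2f2 (0.31 ± 0.14) had positive changes that did not pass (limma adjusted p from 0.056 to 0.175), and Hsd17b13 had groups that did not overlap. Summed levels of the periportal markers were 2776 to 3050.2 FPKM in knockouts and 2999 to 3606 FPKM in controls. Of 9 tested pericentral markers 3 rose, namely Rgn (0.68 ± 0.13), Glul (0.55 ± 0.09) and Gulo (0.36 ± 0.08), 0 fell, and the median was 0.20. Cyp2e1 (-0.26 ± 0.13) and Oat (-0.05 ± 0.20) had negative changes that did not pass (limma adjusted p = 0.191 and 0.887). Summed levels of the pericentral markers were 5716 to 7195 FPKM in knockouts and 6407 to 7115 FPKM in controls, and after median-ratio rescaling only Glul of these passed. The part of both zones in the fall of Pck1 and G6pc was not tested. Alb, Ttr, Gls2, Pigr, Rgn, Glul and Gulo lost their calls without control 3 or knockout 2 (all), control 1 (all but Rgn and Glul), control 2 (all but Glul), knockout 1 (all but Rgn) or knockout 3 (Pigr and Gulo), with limma adjusted p up to 0.128.

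Markers of other cells that use these genes were also read. Adipocytes, which express Pck1 for glyceroneogenesis, are marked by Adipoq, Plin1, Lep and Retn, and these reached no more than 0.0895 FPKM in knockouts and 0.0182 FPKM in controls. The fifth adipocyte marker, the lipid droplet gene Cidea, rose (2.65 ± 0.49, limma adjusted p = 0.0213), at 19.2, 22.2 and 35.9 FPKM in knockout livers, against 3.26, 7.11 and 1.04 FPKM in control livers. Cidea lost its call without knockout 1, knockout 2 or control 1 (limma adjusted p up to 0.0671). Red cell precursors use the upstream start of Pklr. Of 5 tested erythroid markers 1 rose, Alas2 (0.59 ± 0.15, limma adjusted p = 0.0409), which lost its call in each fit without 1 liver except that without knockout 1 (limma adjusted p up to 0.128) and after median-ratio rescaling. Summed erythroid markers were at 332.5 to 534 FPKM in knockouts and 255 to 371 FPKM in controls, overlapping ranges, while Epb42 reached at most 0.0114 FPKM in knockouts and 0.0118 FPKM in controls. Stellate and fibroblast markers rose in 6 of 7 tested genes (4 after median-ratio rescaling), with sums of 77.9 to 107.9 FPKM in knockouts and 38 to 45.3 FPKM in controls. Endothelial markers rose in 2 of 6 tested genes, and the 1 tested biliary marker, Spp1, rose. The biliary markers averaging under 1 FPKM did not all follow it. Krt19 (0.282 to 0.450 FPKM in knockouts, 0.132 to 0.549 FPKM in controls), Krt7 and Epcam overlapped between the groups. Sox9 was higher in knockouts (0.987 to 1.32 FPKM, against 0.178 to 0.321 FPKM in controls). The 1 tested leukocyte marker, S100a8, rose (it was not among the genes tested after median-ratio rescaling). Of kidney and gut markers, where Pck1 and G6pc are also active, 1 of 6 was tested, Fabp2, at -0.12 ± 0.08 (limma adjusted p = 0.306), and the others were below 0.0697 FPKM in knockouts and 0.0359 FPKM in controls at most. What these cells add to the level of each of the 9 genes was not tested.

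**Figure D4:**
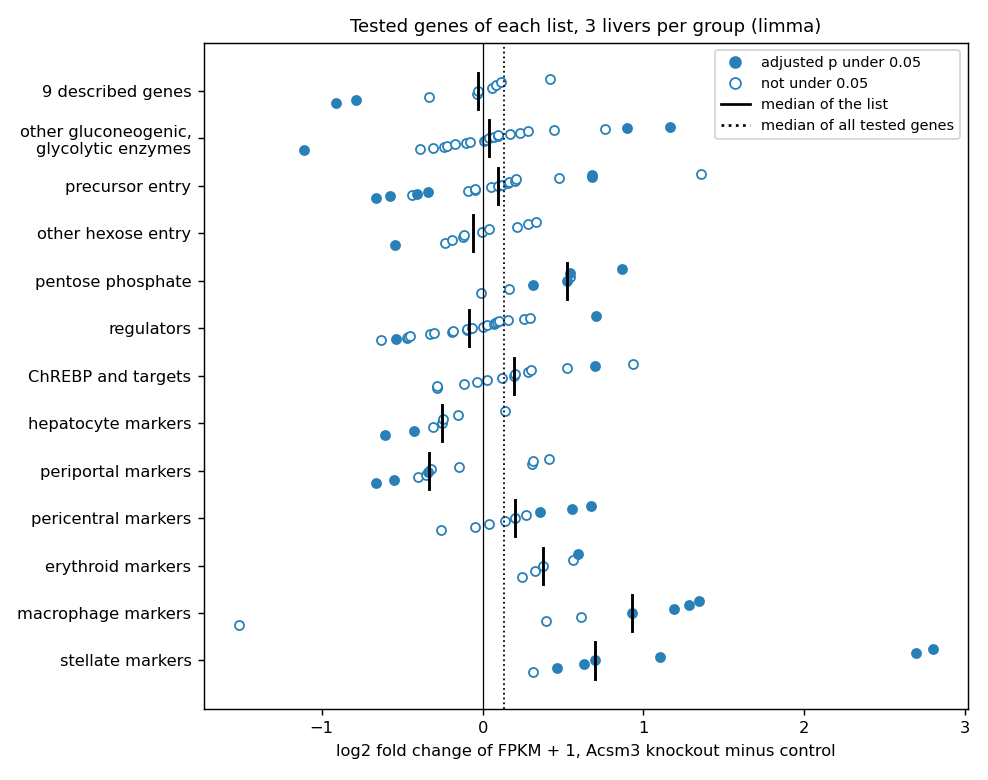
Log2 fold change of FPKM + 1, Acsm3 knockout minus control (x axis), of each tested gene in 13 lists (y axis), with filled points for a limma adjusted p under 0.05 and a bar at each list's median. The 9 described genes have 2 filled points, both on the lower side, and the periportal median of -0.33 lies below the pericentral median of 0.20.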

How the data were processed

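The authors deposited 1 table of FPKM for 6 livers, with gene identifiers, symbols and positions. Per the submitters' processing notes, the build was GRCm38 and the tools included StringTie 1.3.0, HISAT2 2.0.4 and Bowtie2 2.2.6. The role of each tool, the annotation and the treatment of strand were not stated there. Groups and replicate numbers come from the sample titles, and columns were matched to samples by title.

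FPKM were transformed to log2(FPKM + 1), and the 10996 genes averaging 1 FPKM or more were fitted with limma 3.58.1 (lmFit, eBayes with trend) in R 4.3.3. The procedure was tested on simulated data with independent noise and no shift shared by all genes, so that test does not bear on the scaling between groups. Where a symbol was listed more than once, the row of highest mean was used. Depth was estimated from the steps of FPKM times GENCODE M21 exon length: below 20 fragments, 97.9% to 98.1% of values were whole to within 0.1, and the recovered fragments summed to 102.9% to 103.4% of the totals, so the totals are estimates.

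Members and lists were chosen with earlier results of these data known. Named genes are the 9 members, Acsm3, Pfkl and, per list, up to 4 called genes of largest change, or the 2 of smallest p. Gpt, Gk, Tpi1, Pfkm, Slc2a9, Serpinc1, Fgb, Apob, Aldh1b1, Hsd17b13, Cyp2f2, Cyp2e1, Oat, Ppargc1a, Foxo1, Gcgr, Mlxipl, Hcn3, Gapdh, Pgk1, Pdk4, Gpt2, G6pdx, Marco, Krt19, Krt7, Epcam, Sox9 and the ratios to Slc37a4, Pcx and hepatocyte markers were named after their values were seen. Some genes that the rule names for marker lists are given as counts only. Alternatives were other pseudocounts, filters, scalings and variance models, voom, a replicate block and leaving out each liver. Promoter sequences are from RefSeq, and all 9 genes matched. Tables and plots used matplotlib 3.10.9, numpy 2.4.6, pandas 2.3.3 and Python 3.11.15. The hepatocyte marker Tf was not used here, and some listed genes are not reported here by name.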

Additional observations from a re-analysis of the deposited data

How the results depend on the processing

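Across 16 alternatives the change of Pck1 ran from -0.98 to -0.64 and passed in 8, and that of G6pc ran from -1.07 to -0.76 and passed in 12. Fbp1 ran from -0.50 to -0.27 and Pklr from 0.26 to 0.54, each passing in 1. The number of the 9 genes called lower was 0 with no filter, 1 with quantile normalization, 3 with median-ratio rescaling and 0 to 1 when a liver was left out; 1 was called higher with voom. Over all genes, 1532 were called higher and 287 lower. These counts were 544 and 106 with no filter, 848 and 260 with a filter at 5 FPKM, 830 and 735 with median-ratio rescaling, and 752 and 603 with quantile normalization. Leaving out 1 liver gave 226 to 1968 higher and 55 to 282 lower. Signs of small changes turned: with median-ratio rescaling Pcx (-0.10), Slc37a4 (-0.079), Gckr (-0.049) and Pfkl (-0.12), and with quantile normalization Pfkl (-0.13). With 1 liver left out, Slc37a4 ran from -0.079 to 0.24, Slc2a2 from -0.12 to 0.043, Gckr from -0.018 to 0.20, Pfkfb1 from -0.19 to 0.065 and Pfkl from -0.035 to 0.087. The cause was not tested.

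Replicate numbers were not shown to pair the mice, since the correlations of same-numbered deviations were 0.111, 0.0918 and 0.187, though each liver correlated best with its own number. With a replicate block, 1672 genes were called higher and 346 lower, and 1 of the 9 genes was called lower, as Pck1 did not pass (limma adjusted p = 0.0619). Of 39 other named genes that were called, 5 kept the call with every liver left out in turn (Acsm3, Col1a1, Col3a1, Dcn and Pdgfrb). The call was lost by 7 with median-ratio rescaling, 6 with quantile normalization, 3 with the block (Gk, Pigr and Alas2) and 25 with no filter. The 6 include Alb, for which quantile normalization is no test. Fits without 1 liver rest on fewer samples, so a lost call need not rest on that liver. The range of genes called higher in these fits reached above the full fit, so the number of calls depended on the liver left out.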

Other observations

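Gapdh, which acts in both glycolysis and gluconeogenesis, was listed at 1.96, 2.61 and 1.38 FPKM in knockout livers 1, 2 and 3, against 2.06, 1.22 and 7.35 FPKM in control livers 1, 2 and 3. The neighbouring enzyme Pgk1 was at 98.4 to 119.3 FPKM in knockouts and 111.6 to 120.4 FPKM in controls. Processed pseudogenes were counted only where their symbol was that of the gene followed by -ps, which gave 2 for Gapdh and 2 for Pgk1. Copies annotated under other symbols were not counted, so these numbers do not give the full set for either gene. The sources used here do not say how fragments shared with such copies were counted, and their part in the Gapdh value was not tested.

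The mitochondrial pyruvate dehydrogenase kinase Pdk4, which spares pyruvate for gluconeogenesis, was at 7.002, 16.6 and 28.7 FPKM in knockout livers 1, 2 and 3, against 6.99, 4.55 and 4.59 FPKM in control livers 1, 2 and 3. Knockout 1 lay at the level of control 1, and the change of 1.36 ± 0.45 did not pass (limma, adjusted p = 0.0796). The aminotransferase Gpt2 was at 187.6, 183 and 134.7 FPKM in knockout livers, against 108.4, 118.5 and 133.5 FPKM in control livers, a change of 0.47 ± 0.15 that did not pass (limma, adjusted p = 0.0704), while its cytosolic relative Gpt fell by 0.41 on the log2 scale. These genes were named after their values were seen.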
